A study of Mus musculus with 2 samples.

Results

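The 10 genes described here encode heat shock proteins and chaperones, and they are 10 of the 32285 genes in the deposited counts, of which 21698 had at least 1 UMI (a counted RNA molecule) in the kept cells. They are Hspa1a, Hspa1b, Hspa8, Hsp90aa1, Hsp90ab1, Hsph1, Dnajb1, Hspb1, Hspd1 and Hspe1. They were chosen by their levels in these same cells, in erythroid cells by globin share and depth and in 4 other cell classes, so every value given for those groupings is a description with no test. The cells came from the femurs and tibias of 3 untreated male INK-ATTAC mice aged 24 months. Their INK-ATTAC transgene makes p16-expressing cells sensitive to a drug that was never given, and no younger or treated group is available to compare with. Tissue was digested with enzymes, red cells were lysed, cells with blood lineage markers (Ter-119, an erythroid one, among them) were depleted on magnets, and live CD45-negative cells were sorted by FACS and pooled before 10x Chromium 3′ sequencing.

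The pool was run in 2 lanes, deposited as rep1 and rep2, with 116827845 UMIs over 10968 barcodes in lane 1 and 120556381 UMIs over 11016 barcodes in lane 2. The lanes hold the same cells, since 10928 barcodes of 11056 were in both, so their UMIs were summed per barcode, and the lanes are no replicates. A molecule can be counted in both lanes, so summed UMIs per cell, here and below, are not numbers of molecules. Barcodes needed at least 200 genes and at most 20% of UMIs from mitochondrial genes, and 9573 cells were kept. With 1 pooled sample there are no biological replicates, and the 95% intervals given in parentheses cover counting error only. Levels are given as CPM, the UMIs of a gene over all UMIs of a group of cells, scaled to a common total, so deep cells weigh more.

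Chaperones bind unfolded or partly folded proteins, keep them from clumping and help them fold. HSP70 proteins do this in repeated cycles with J-domain helpers such as Dnajb1 and exchange factors such as Hsph1, HSP90 proteins finish the folding of kinases and hormone receptors, and the chaperonin of Hspd1 and Hspe1 folds proteins inside mitochondria. Hspa1a and Hspa1b are nearly silent in many resting cells and are switched on within minutes by heat and other stress, while Hspa8 and Hsp90ab1 are made all the time. In maturing red cells, HSP70 is known to bind free globin partners and to protect the transcription factor GATA1.

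Most kept cells were not mesenchymal, although the label calls the samples mesenchymal. Clusters named from the erythroid markers held 6428 cells (67.1%), with a median of 28723 UMIs per cell, and all 18 erythroid markers were at their highest there among the 5 classes. The LEPR+ stromal-like class had 1630 cells and a median of 5397 UMIs, and its 13 markers were all highest in it, led by Cxcl12 at 22971 CPM. The fibroblast-like class had 135 cells, with 10 of 13 fibroblast markers highest in it (Dcn at 12847 CPM), but 10 of 12 osteoblast markers were highest in it too, with Spp1 at 13048 CPM. So were 8 of 9 chondrocyte markers, with Comp at 1503 CPM, and 7 of 11 pericyte and smooth muscle markers, so the name covers a mixture. The endothelial-like class had 51 cells, with all 12 markers highest in it (Ptprb at 1187 CPM), and the megakaryocyte-like class had 131 cells, with all 11 highest in it (Pf4 at 26314 CPM). The megakaryocyte-like class also held RNA of other blood cells, with Ighm at 1130 CPM, Elane at 1071 CPM and Mpo at 802 CPM. Highest in it too were 6 of 8 B cell markers and 6 of 7 mast cell and basophil markers. Its values may therefore not be those of megakaryocytes alone. The erythroid-like cells were split at 10000 summed UMIs into 4364 deep cells, with a median of 45134.5 UMIs, and 2064 shallow cells, with a median of 5816.5.

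The 10 genes together made up 8000 CPM of the RNA counted in erythroid-like cells (7983 to 8017), 6502 CPM in megakaryocyte-like cells (6371 to 6636), 5723 CPM in fibroblast-like cells (5536 to 5914), 4334 CPM in endothelial-like cells (3953 to 4743) and 2375 CPM in LEPR+ stromal-like cells (2332 to 2419). The counting intervals of neighbours in this order do not overlap, but these levels chose the genes, so the order is a description. LEPR+ stromal-like cells held the least RNA of these 10 genes per UMI of the 5 classes, 3.37-fold less than erythroid-like cells. The 4 nuclear and rRNA-like transcripts Malat1, Neat1, Gm26917 and Gm42418 took 168734 CPM in LEPR+ stromal-like cells and 25946 CPM in erythroid-like cells, and with them taken out of the total the log2 ratio was -1.52 in place of -1.75. Behind the sum lie patterns that run in opposite directions, and the genes are taken by their roles below.

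**Figure D1:**
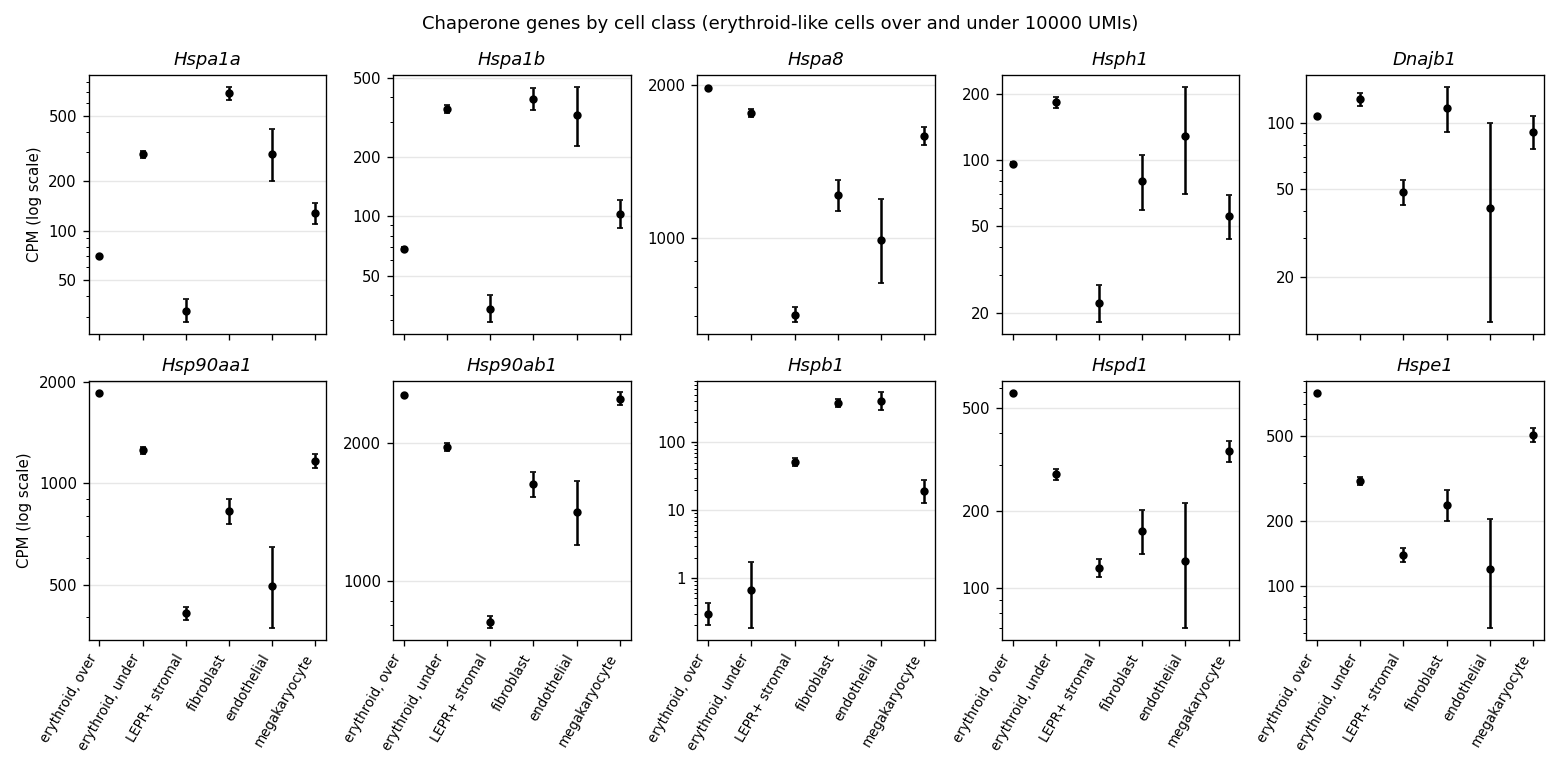
Level of each of the 10 genes (CPM, log scale, a separate axis per gene) in erythroid-like cells over and under 10000 summed UMIs and in the 4 other classes; points are CPM over the mean of the lanes and bars are exact 95% Poisson intervals. Hspa1a and Hspa1b are highest in fibroblast-like cells, where they reached 685 and 391 CPM, while Hspd1 and Hspe1 are highest in erythroid-like cells over 10000 UMIs.

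Hspa1a and Hspa1b, the stress-inducible HSP70 genes, were highest in fibroblast-like cells. There Hspa1a stood at 685 CPM in each lane (621 to 753 on the mean of the lanes, from 418 and 431 UMIs), 8.32-fold above erythroid-like cells, and Hspa1b at 382 and 400.5 CPM in the lanes (344 to 444 on their mean), 4.63-fold above. Endothelial-like cells followed, with Hspa1a at 298 and 289 CPM (201 to 414) and Hspa1b at 298 and 352 CPM (227 to 451), each from under 40 UMIs a lane. Hspa1a was at 128 CPM in megakaryocyte-like cells (109.9 to 148), 82.3 in erythroid-like cells (80.6 to 84.1) and 32.6 in LEPR+ stromal-like cells (27.7 to 38.1). The counting intervals of neighbours in this order do not overlap for Hspa1a, and for Hspa1b only those of fibroblast-like and endothelial-like cells do, but they treat UMIs as independent, and a few cells hold many of them. The order of megakaryocyte-like and erythroid-like cells depends on how cells are weighted: the log2 ratio of 0.63 for Hspa1a and 0.29 for Hspa1b turned to -0.65 and -1.08 when every cell's CPM counted equally, and to -0.58 and -0.60 at 2000 UMIs per cell. The erythroid-like level behind the folds is set mostly by deep cells. Shallow erythroid-like cells, under 10000 UMIs, had Hspa1a at 291 CPM (278 to 305) and Hspa1b at 349 CPM (334 to 364). Endothelial-like cells do not differ from these beyond their intervals, nor do fibroblast-like cells for Hspa1b.

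Most of these transcripts came from a minority of cells in every class. In fibroblast-like cells, 28 of 135 cells had 10 or more UMIs of the pair and held 92.7% of its UMIs, while 52.6% of the cells had none. In megakaryocyte-like cells, 11 of 131 cells held 89.4%, with 362 UMIs in the highest cell, and in endothelial-like cells 3 of 51 held 57.0%. In erythroid-like cells, 806 of 4364 deep cells held 82.5% and 236 of 2064 shallow cells held 65.1%. In LEPR+ stromal-like cells 82.8% had none, and 8 of 1630 reached 10 UMIs and held 25.4%. The cut of 10 UMIs is a raw count, which deep cells reach at a lower CPM. Neither the cells above it nor those with none can be compared between groups of different depth. Counts of Hspa1a and Hspa1b went together over cells, with a Pearson r over single cells thinned to 2000 UMIs of 0.80 in 97 megakaryocyte-like cells, 0.72 in 121 fibroblast-like cells, 0.67 in 21 endothelial-like cells, 0.61 in 1569 shallow and 0.45 in 4364 deep erythroid-like cells, and 0.38 in 1223 LEPR+ stromal-like cells. Across all 45 pairs of the 10 genes the median r was far lower, between 0.03 in deep erythroid-like and 0.19 in megakaryocyte-like cells, and cells of 1 class share their pool and their lanes. The pair had the highest r of all 45 in each group but the 21 endothelial-like cells, where Hspa1a with Hsph1 had 0.83, with Hsp90aa1 0.75, and Hsp90aa1 with Hspb1 0.69. In megakaryocyte-like cells Hspa1a with Hsph1 followed at 0.69.

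Within the LEPR+ stromal-like class, the pair was concentrated in a sub-cluster of 366 cells at 233 CPM (203 to 267), where the other 2 sub-clusters, of 645 and 619 cells, had 26.6 and 27.6 CPM. That sub-cluster also had Dnajb1 at 116 CPM (95.1 to 140.3) against 34.2 and 29.9, and Hsp90aa1 at 907 CPM (847 to 971) against 289 and 299. All 10 genes together were at 3556 CPM there (3435 to 3680) against 2214 and 1910 CPM, so the rise is not read as particular to the inducible genes. Hspd1, the chaperonin, did not follow, at 99.8 CPM (80.5 to 122) against 133 and 113. The 12 immediate-early genes, which cells switch on within minutes of a stimulus or of handling, summed to 15643 CPM in the same sub-cluster and to 1318 and 1589 CPM in the others. Their part in the result was not tested. They were high in the fibroblast-like cells as well, at 11341 CPM against 991 in erythroid-like cells.

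In erythroid-like cells, the pair differed with depth, but shallow and deep cells mostly lay in different clusters. Clusters of 1250, 845 and 369 cells held 55.8%, 21.8% and 13.95% of the shallow cells. The pair stood at 701, 491 and 689 CPM in them. The other erythroid-like clusters each held at most 5.52% of the shallow cells, with the pair at 30.8 to 229.5 CPM. Whether the pair differs with depth within a cluster was not tested. Hspa1a stood at 291 CPM in each lane in shallow cells and at 70.1 and 69.3 CPM in deep cells, a log2 difference of 2.06 (1.99 to 2.14) that turned to -0.78 among cells with under 5% nuclear and rRNA-like UMIs, and was 0.23 there with a single cluster of 512 cells left out. Hspa1b stood at 341 and 356 CPM in shallow cells and at 68.8 and 68.1 CPM in deep cells, a log2 difference of 2.35 (2.28 to 2.42) that turned to -1.59 in the same subset, and was -0.72 there without that cluster. Ordered by this difference among 10690 genes with at least 50 UMIs, Hspa1b came at place 92 and Hspa1a at place 199 from the highest. Of the 9 members that reached that minimum, 2 were at least 2-fold higher in shallow cells, Hspa1a and Hspa1b, as were 19.8% of all genes, and 2 were at least 2-fold lower, Hspd1 and Hspe1, as were 11.6% of all genes. The split by depth chose these genes, so nothing is read from the counts. Of the erythroid-like cells, 331 (5.15%) lay within 10% of the boundary of 10000 UMIs.

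The share of nuclear and rRNA-like transcripts moved with depth and with these genes. Those 4 transcripts took 147914 CPM in shallow cells and 18553 CPM in deep cells, with Malat1 at 14944 against 3502 CPM and Gm26917 at 16440 against 360 CPM. In cells where they took 5 to 10% of the UMIs, the Hspa1a and Hspa1b sum was 714 CPM (665 to 766) in 306 shallow cells and 455 CPM (433 to 478) in 438 deep cells. At 10 to 20% it was 744 CPM (714 to 775) in 1003 shallow cells and 399 CPM (362 to 439) in 160 deep cells. At 20% or more it was 582 CPM (539 to 627) in 576 shallow cells and 430 CPM (316 to 571) in 18 deep cells, with overlapping intervals. Under 5% it was 56.7 CPM (39.0 to 79.6) in 179 shallow cells and 123 CPM (121 to 125) in 3748 deep cells. The bands do not hold depth apart from share, since the deep cells had a median of 13753.5 UMIs at 5 to 10%, 12086 at 10 to 20% and 48806.5 under 5%.

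Among the 179 shallow cells with under 5%, 102 belonged to a single erythroid-like cluster of 512 cells in which the pair stood at 30.8 CPM (26.4 to 35.6) and Malat1 at 482 CPM. With that cluster left out at both depths, 77 shallow cells had 115 CPM (76.4 to 167) and 3356 deep cells 129 CPM (126 to 131), a difference not detectable at this depth of counting. In the bands from 5% to 20%, few genes of any kind differed 2-fold with depth. At 5 to 10%, 0 of 9 members did, where 0.249% of 6437 genes were higher and 1.1% lower in shallow cells. At 10 to 20%, again 0 of 9 did, where 1.28% of 6304 genes were higher and 1.32% lower. Under 5%, 0 of 9 were higher and 1 was lower (Hspa1b), where 4.74% of 10462 genes were higher and 16.4% lower. The bands were chosen after the data had been seen, and the part of the nuclear and rRNA-like transcripts in the depth difference was not tested.

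**Figure D2:**
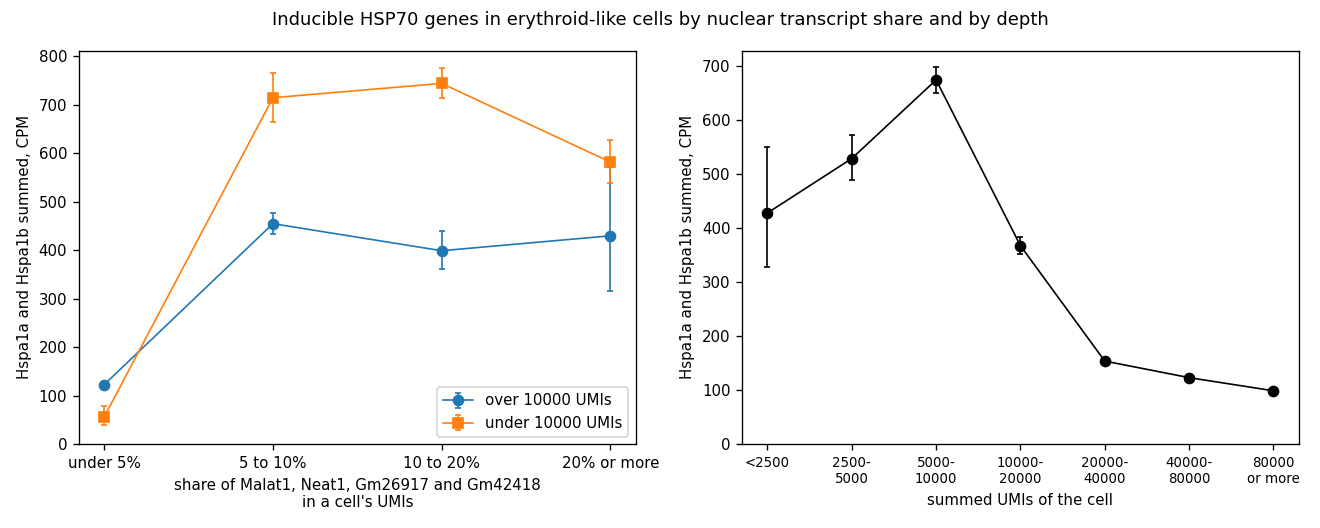
Hspa1a and Hspa1b summed (CPM) in erythroid-like cells, on the left by the share of a cell's UMIs from Malat1, Neat1, Gm26917 and Gm42418 for cells over and under 10000 summed UMIs, and on the right by summed UMIs; points are CPM and bars exact 95% Poisson intervals. Shallow cells lie above deep cells at shares of 5 to 10% and 10 to 20% and below them under 5%, and by depth the level peaks at 675 CPM between 5000 and 10000 UMIs and is 99.0 CPM at 80000 UMIs or more.

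By depth alone, the level of the pair did not fall evenly. It was 428 CPM under 2500 UMIs (328 to 550.1), 529 CPM from 2500 to 5000 UMIs, 675 CPM from 5000 to 10000 UMIs and 368 CPM from 10000 to 20000 UMIs. Deeper cells had 154, 123 and 99.0 CPM in the ranges that begin at 20000, 40000 and 80000 UMIs. In shallow cells the pair was lower at higher mitochondrial shares, from 744 CPM at under 2% to 444 CPM at 10 to 20%. Hspa1a and Hspa1b each have 1 exon. Of the 256 protein-coding genes with a single exon that were tested, these included, 35.9% were at least 2-fold higher in shallow cells, against 18.8% of 9598 with more exons. Whether the number of exons plays a part was not tested.

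The share of cells with a UMI depends on depth and is given with and without thinning. Before thinning, 33.1% of shallow cells (31.1 to 35.2) and 37.3% of deep cells (35.9 to 38.8) had a UMI of Hspa1a, so more deep cells had one. At 2000 UMIs per cell in lane 1, the shares were 25.7% of 1569 shallow cells and 10.5% of 4364 deep cells.

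Globin share, a measure of how far erythroid cells have matured, went with these genes differently at the 2 depths. In deep cells Hspa1a was 48.1 CPM at a globin share under 0.5%, then 52.6, 64.0 and 89.7, and 93.8 CPM at 6% or more. In shallow cells it was 219.5 CPM at under 0.5%, 399 CPM at 1 to 2.5% and 121 CPM (67 cells) at 6% or more. Within globin bins, the log2 difference of the pair between shallow and deep cells was 2.36, 2.95, 2.70 and 1.85 from the lowest bin on, and 0.40 (-0.04 to 0.80) in the highest, where it was not detectable. Over all erythroid-like cells, the pair was 1.32-fold higher at 6% or more than under 0.5%, a direction that turned with the mean of each cell's CPM (log2 -0.54) and at 2000 UMIs per cell (log2 -0.33).

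**Figure D3:**
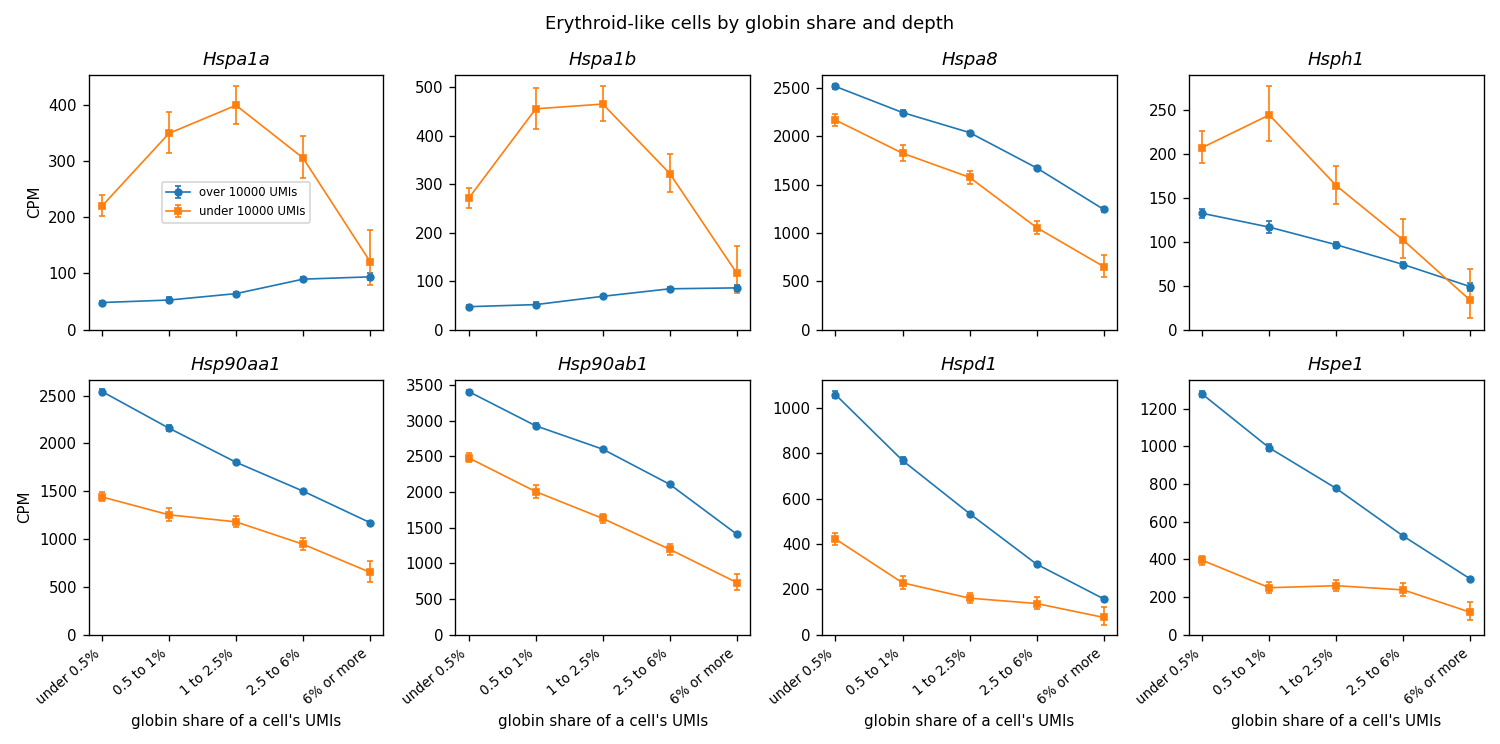
Levels (CPM) of 8 of the genes in erythroid-like cells by the globin share of a cell's UMIs, for cells over and under 10000 summed UMIs; points are CPM and bars exact 95% Poisson intervals. Hspd1 and Hspe1 are lower at each higher globin share in cells over 10000 UMIs, while Hspa1a is at 48.1 CPM in the lowest and 93.8 CPM in the highest share of those cells.

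Hspa8, the constitutive HSP70, was highest in erythroid-like cells at 1966 and 1970.05 CPM in the lanes, then 1591 CPM in megakaryocyte-like (1526 to 1657), 1212 in fibroblast-like (1127 to 1302), 989.7 in endothelial-like (812 to 1195) and 704 in LEPR+ stromal-like cells (679.9 to 728). The fibroblast-like and endothelial-like values do not differ beyond their intervals. Unlike its inducible relatives it was spread over most cells, with a UMI in 89.3% of shallow and 94.7% of deep erythroid-like cells, and 73.5% of 1223 LEPR+ stromal-like cells, at 2000 UMIs per cell. With depth it was slightly lower in shallow cells, at 1764 CPM in shallow and 1980.4 CPM in deep cells, a log2 difference of -0.17 (-0.20 to -0.14) that became 0.04 without nuclear and rRNA-like UMIs and 0.06 at a share of 5 to 10%, and was -0.34 at a share under 5% without the cluster of 512 cells. Within globin bins, the log2 difference was -0.21, -0.30, -0.37, -0.66 and -0.93 from the lowest bin to the highest. With globin share it fell by 1.01 on the log2 scale, from 2477 CPM in the lowest bin to 1230.4 CPM in the highest.

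Hsph1 and Dnajb1 help HSP70 through its cycle, Hsph1 as a nucleotide exchange factor and Dnajb1 as a J-domain protein. Hsph1 was lowest in LEPR+ stromal-like cells, at 22.0 and 22.5 CPM in the lanes (18.2 to 26.9 on their mean), and at 100.3 CPM in erythroid-like cells (98.4 to 102). For Hsph1 the endothelial-like (128 CPM, 70.1 to 215), erythroid-like and fibroblast-like (79.9 CPM, 59.2 to 105) values overlap, as do the fibroblast-like and megakaryocyte-like ones (55.3 CPM, 43.8 to 68.9). In shallow erythroid-like cells Hsph1 was at 184 and 182 CPM in the lanes and in deep cells at 94.4 and 96.2, a log2 difference of 0.94 (0.85 to 1.03) that turned to -0.42 under 5% nuclear and rRNA-like UMIs, and was 0.14 there without the cluster of 512 cells. Dnajb1 differed less with depth, by a log2 of 0.26 (0.15 to 0.36) that turned to -0.96 there, or -0.63 without that cluster. Across the classes, Dnajb1 was between 91.3 and 117 CPM in megakaryocyte-like, erythroid-like and fibroblast-like cells, whose intervals overlap from each to the next, and lower in LEPR+ stromal-like cells (48.6 CPM, 42.6 to 55.3) and endothelial-like cells (41.2 CPM, 12.4 to 100.4, from 5 and 4 UMIs), the last with an interval that also reaches the megakaryocyte-like value. These helpers therefore did not share the pattern of Hspa1a and Hspa1b across the classes.

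The HSP90 genes Hsp90aa1 and Hsp90ab1 were highest in erythroid-like cells. Hsp90aa1, the more stress-responsive of the pair, was at 1824 and 1814 CPM in the lanes there, 1167 CPM in megakaryocyte-like (1112 to 1225), 827 in fibroblast-like (757 to 902), 495 in endothelial-like (372 to 646) and 412 in LEPR+ stromal-like cells (394 to 430.4), the last neighbours not differing beyond their intervals. Hsp90ab1, the constitutive form, was at 2521 CPM in erythroid-like cells (2511 to 2530.4) and 2504 CPM in megakaryocyte-like cells (2422 to 2587), which do not differ beyond their intervals. Fibroblast-like (1624 CPM, 1526 to 1728) and endothelial-like cells (1411 CPM, 1197 to 1653) overlap too, and LEPR+ stromal-like cells were lowest at 812 CPM (786 to 838). Both forms fell with globin share, Hsp90aa1 by 1.07 and Hsp90ab1 by 1.25 on the log2 scale. In shallow against deep cells the log2 differences were -0.57 and -0.38, and within the bands of nuclear share they lay between -0.19 and 0.07, where the sign of Hsp90ab1 turned at 10 to 20%. Under 5% with the cluster of 512 cells left out, they were -0.46 and -0.37.

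Hspd1 and Hspe1, the barrel and the lid of the mitochondrial chaperonin, fell most with globin share of the 9 members counted, over all erythroid-like cells. In shallow cells alone the order differed. From the lowest to the highest globin bin, Hsph1 fell from 207 to 33.2 CPM there and Hsp90ab1 from 2480 to 730 CPM. Hspd1 fell from 422 to 75.9 CPM and Hspe1 from 395 to 119 CPM. Hspd1 was 557 and 552 CPM in the lanes of erythroid-like cells, against 340.2 CPM in megakaryocyte-like (311 to 372), 167 in fibroblast-like (136 to 202), 128 in endothelial-like (70.1 to 215) and 120.2 in LEPR+ stromal-like cells (110.5 to 130.4). Hspe1 was 763 and 759 CPM in the lanes of erythroid-like cells, against 504, 237, 119 and 139 CPM in the other classes in the same order. The endothelial-like values, from 14 UMIs a lane for Hspd1 and 17 and 9 for Hspe1, do not differ beyond their intervals from those of LEPR+ stromal-like or fibroblast-like cells.

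Across the globin bins Hspd1 fell from 991 CPM under 0.5% to 156 CPM at 6% or more, a 6.35-fold difference, and Hspe1 from 1185 to 292 CPM, a 4.06-fold difference. The fall was stepwise in deep cells, where Hspd1 went through 1058.5, 768, 534, 311 and 158 CPM from the lowest globin bin on. In all, 6 of 9 members were at least 2-fold lower at the highest globin share (Hspa8, Hsph1, both HSP90 genes, Hspd1 and Hspe1), as were 27.9% of 9482 genes, and 0 were 2-fold higher, as were 3.74% of the genes. Hspa8 and Hsp90aa1 only just passed, at log2 -1.01 and -1.07. Without globin and mitochondrial UMIs the value of the 10 genes moved from -1.23 to -1.11, and the same shift takes both under 2-fold. Dnajb1 was higher at high globin share, at 116 against 86.2 CPM (log2 0.42, 0.32 to 0.53), and so it was in deep cells, at 117 against 82.9 CPM. In shallow cells the lowest and highest bins overlap, at 114 CPM (101 to 128) and 75.9 CPM (43.4 to 123, from 67 cells), and the bins between them had 158, 148.5 and 119 CPM. With depth the chaperonin genes were lower in shallow cells, by 2.06-fold for Hspd1 and 2.56-fold for Hspe1, but the direction turned among cells with under 5% nuclear and rRNA-like UMIs, to log2 0.26 and 0.45, and turned back to -0.13 and -0.57 there when the cluster of 512 cells was left out.

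Hspb1, the small heat shock protein that holds unfolding proteins without using ATP, marked the vessel and connective tissue classes. It was at 438 and 370 CPM in the lanes of endothelial-like cells (293 to 541 on their mean) and at 367 and 397 CPM in fibroblast-like cells (335 to 434), which do not differ beyond their intervals. LEPR+ stromal-like cells had 51.2 CPM (45.0 to 58.1), megakaryocyte-like cells 19.2 CPM (12.7 to 27.9) and erythroid-like cells 0.321 CPM (0.221 to 0.449), the last from 34 and 33 UMIs among 6428 cells. At 2000 UMIs per cell, 66.7% of 21 endothelial-like cells, 24.8% of 121 fibroblast-like cells and 8.50% of 1223 LEPR+ stromal-like cells had a UMI of Hspb1, against 0.0843% of 5933 erythroid-like cells. Without thinning the shares were 49.0%, 43.7%, 15.3% and 0.513%, at median depths of 3785, 8087, 5397 and 28723 UMIs. The median cell had 0 CPM of Hspb1 in both the fibroblast-like and the endothelial-like class. Among thinned fibroblast-like cells the highest held 23 UMIs beside a mean of 0.818, so few cells carry much of the level there.

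The members at least 2-fold higher or lower than in erythroid-like cells were counted in each class, beside the share of all genes. These contrasts all share the erythroid-like cells and chose the genes, so nothing is read from the counts. In LEPR+ stromal-like cells 1 of 10 members was at least 2-fold higher (Hspb1), as were 44.6% of 12360 genes, and 9 were at least 2-fold lower, as were 20.8%. In fibroblast-like cells 3 were higher (Hspa1a, Hspa1b and Hspb1; 32.4% of 11202 genes) and 3 lower (Hsp90aa1, Hspd1 and Hspe1; 26.2%). In endothelial-like cells the same 3 were higher (30.6% of 10783 genes) and 4 lower (Dnajb1, Hsp90aa1, Hspd1 and Hspe1; 35.8%). In megakaryocyte-like cells 1 was higher (Hspb1; 25.1% of 11016 genes) and 0 lower (18.2%).

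Globin RNA was also counted in the other classes. Globin genes reached 5.26% of their erythroid level in LEPR+ stromal-like cells and 12.2% in endothelial-like cells. If all of that came from erythroid cells, the same share of erythroid RNA would make up 28.7% of Hspe1 and 13.3% of Hspa1a in LEPR+ stromal-like cells, and 77.8% of Hspe1 and 52.7% of Hspd1 in endothelial-like cells. In fibroblast-like cells it would make up 0.423% of Hspa1a. In the other direction, Cxcl12 in erythroid-like cells was 0.103% of its level in LEPR+ stromal-like cells.

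Other chaperone families were counted from lists, beside the median of all genes tested in each contrast. The 14 genes of the cytosolic chaperonin and prefoldin, which fold actin and tubulin, had 11 genes at least 2-fold lower in LEPR+ stromal-like than in erythroid-like cells (median log2 -1.65, all genes 0.71, of which 20.8% were lower), among them Cct7 at 83.0 against 346.5 CPM. The 15 endoplasmic reticulum chaperones, which serve secreted proteins, went the other way, with 11 at least 2-fold higher (median log2 1.92, beside 44.6% of all genes), led in level by Hspa5 at 1421 against 376 CPM and in ratio by Pdia4 at 162 against 12.7 CPM. In megakaryocyte-like cells 14 of those 15 were higher (median log2 2.05, all genes 0.07, of which 25.1% were higher), such as Calr at 1159 against 312 CPM and Sdf2l1 at 230.3 against 26.2 CPM. In fibroblast-like cells 8 of 15 were higher and 0 lower, beside 32.4% and 26.2% of all genes. In endothelial-like cells 4 were higher and 2 lower, beside 30.6% and 35.8% of all genes (median log2 0.32, all genes -0.10). The cytosolic chaperonin and prefoldin list had 9 of 14 genes lower and 1 higher in fibroblast-like cells. It had 7 lower in endothelial-like cells and 0 lower in megakaryocyte-like cells. The shares of all genes lower in these classes were 26.2%, 35.8% and 18.2%.

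Genes that work with the members or answer to the same stress showed further contrasts. Among 10 HSP90 co-chaperones, 6 were at least 2-fold lower and 2 higher in LEPR+ stromal-like cells, beside 20.8% and 44.6% of all genes. Among them were Cdc37, which loads kinases, at 68.2 against 222 CPM, and, higher, Fkbp5, a target of the glucocorticoid receptor, at 73.1 against 7.06 CPM. At high globin share 5 of the 10 were lower, with Fkbp4 at 52.1 against 236 CPM, and 0 were higher, beside 27.9% and 3.74% of all genes. Of 12 HSP70 co-chaperones, 5 were lower and 1, Bag5, was higher in LEPR+ stromal-like cells, beside the same 20.8% and 44.6%. Of 11 other stress-inducible genes, 6 were at least 2-fold higher in fibroblast-like cells and 2 lower (Hspa4l and Cacybp), beside 32.4% and 26.2% of all genes. Among the higher ones were Bag3 at 97.6 against 6.57 CPM and Cryab, another small heat shock protein, at 114 against 0.00478 CPM. The erythroid-like value of Cryab lies at the floor of counting, so the size of its ratio is not read. The heat shock factor Hsf2 was at 31.0 CPM in LEPR+ stromal-like and 3.52 CPM in erythroid-like cells. It fell by 2.83 on the log2 scale from the lowest to the highest globin share. There all 3 genes of its list, Hsf1, Hsf2 and Hsbp1, were at least 2-fold lower, as were 27.9% of all genes. Hsbp1 encodes a protein that binds the factor and is not a factor itself. Hspa4, Hspa5, Hspa9, Hspa14 and Hspa4l, also of the HSP70 family, were counted in other lists, and Hspa4l was lower in fibroblast-like cells, as above. Of the 5 genes listed as other HSP70 family members, 2 reached the minimum, Hspa2 and Hspa13. Both were at least 2-fold higher in each of the 4 other classes than in erythroid-like cells. So were 44.6% (LEPR+ stromal-like), 32.4% (fibroblast-like), 30.6% (endothelial-like) and 25.1% (megakaryocyte-like) of all genes. Hspb6, the only further listed small heat shock protein that reached the minimum in all 4 classes, had at most 19 UMIs in any of them, too few to order the classes. Of 9 further mitochondrial chaperones and proteases, 4 were lower at the highest globin share and 0 higher, beside 27.9% and 3.74% of all genes, with Hspa9 at 66.7 against 236 CPM.

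With depth, the cytosolic chaperonin list had 6 of 14 genes at least 2-fold lower in shallow erythroid-like cells (median log2 -0.92, all genes 0.20), but 0 in each band of nuclear and rRNA-like share. Its median was 0.14 under 5% (all genes -0.18), -0.25 at 5 to 10% (all genes 0.01) and -0.44 at 10 to 20% (all genes -0.04). Of the 12 immediate-early genes 8 were at least 2-fold higher in shallow cells, led by Jun at 964 against 198 CPM, but under 5% nuclear and rRNA-like UMIs the list had 5 lower and 0 higher (median -0.80), beside 16.4% and 4.74% of all genes (median -0.18). Its sum there was 448 CPM in shallow and 864 CPM in deep cells, and 774 and 904 CPM with the cluster of 512 cells left out. At 5 to 10% the list had 0 of 9 either way (median 0.41), beside 0.249% of all genes higher and 1.1% lower. At 10 to 20% it had 4 of 9 higher and 0 lower (median 0.99), beside 1.28% and 1.32% of all genes. Of 15 endoplasmic reticulum chaperones 1 was higher and 4 were lower in shallow cells, and of 6 integrated stress response genes 1 was higher (Ddit4) and 2 were lower (Trib3 and Asns). The HSP90 co-chaperones and the further mitochondrial chaperones had 2 lower each, and the other stress-inducible genes 2 higher (Ier5 and Bag3) and 1 lower (Cacybp). The HSP70 co-chaperones and the list of Hsf1, Hsf2 and Hsbp1 had 0 either way. In this contrast 19.8% of all genes were higher and 11.6% lower, and several of these counts, of 3 to 15 genes a list, are close to those shares. All 12 immediate-early genes were at least 2-fold higher in fibroblast-like than in erythroid-like cells, as were 32.4% of all genes, with Fos at 2373 against 9.08 CPM.

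The genes most like Hspa1b over 14 groups, the 10 erythroid bins of globin share and depth and the 4 other classes, were Hspa1a (Pearson r 0.976 of log2 levels), Syne3 (0.917), Gm15675 (0.899), Cntln (0.877) and Hipk1 (0.854), among 10370 genes. Most like Hspd1 were Gar1 (0.989), Npm1 (0.976), Lyar (0.974), Mrps26 (0.963) and Hspe1 (0.958), of which Gar1, Npm1 and Lyar encode proteins of the nucleolus. Hspd1 had an r of 0.932 with Hsp90ab1 and 0.906 with Hspa8 but -0.42 with Hspa1a. The groups come from 1 pool and the bins differ in depth, so these are descriptions.

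The sequence and place of the genes were not used to choose them. Hspa1a (ENSMUSG00000091971) and Hspa1b (ENSMUSG00000090877) lie on the minus strand of chromosome 17 in GRCm38, from 34969190 to 34972156 and from 34956436 to 34959238, with 9951 bases between them. Their coding sequences are 99.4% identical, but the last 300 bases of their transcripts, where 3′ libraries read, are 49.0% identical. Reads from the coding part can therefore tell the genes apart only where they cover a differing base, while reads near the end can. How many reads fell where is not known from counts, and the sum of the pair is the safer value. Hspa1b and Hspa8 share 74.1% of their coding bases, and Hsp90aa1 and Hsp90ab1 75.3%. Hspd1 (ENSMUSG00000025980, minus strand) and Hspe1 (ENSMUSG00000073676, plus strand) lie head to head on chromosome 1, from 55077835 to 55088243 and from 55088132 to 55091307, and overlap by 112 bases.

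The heat shock factor binds repeats of the letters GAA in alternating direction, so the 250 bases before each start were searched in RefSeq promoters (GRCm38.p6), which hold 7 of the 10 members. A pair of units (GAANNTTC or TTCNNGAA, each its own reverse complement and so the same on both strands) was present for 6 of the 7, all but Dnajb1, and for 14.5% of 27025 genes. A run of 3 units (GAANNTTCNNGAA or TTCNNGAANNTTC, each the other's reverse complement, and each holding the pair) was present for 2, Hspd1 and Hspe1, which share 1 site, and for 0.514% of genes. Hspd1 has 2 windows in RefSeq, and only the one of the inner start, at chr1:55087933-55088182, holds the site, while the window before the outer start, at chr1:55088244-55088493, holds neither kind. Hspa8, Hsp90aa1 and Hsp90ab1 have no entry. The windows of Hspa1a and Hspa1b, whose levels run together, are 98.8% identical (247 of 250 bases) and are shown whole, with the pair of units in capitals, at chr17:34972157-34972406 and chr17:34959239-34959488, minus strand.
Hspa1a: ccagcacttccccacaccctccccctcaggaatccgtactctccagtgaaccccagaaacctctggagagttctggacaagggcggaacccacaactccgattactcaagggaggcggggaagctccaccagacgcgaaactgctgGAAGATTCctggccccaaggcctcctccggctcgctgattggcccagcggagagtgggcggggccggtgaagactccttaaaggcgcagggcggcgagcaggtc
Hspa1b: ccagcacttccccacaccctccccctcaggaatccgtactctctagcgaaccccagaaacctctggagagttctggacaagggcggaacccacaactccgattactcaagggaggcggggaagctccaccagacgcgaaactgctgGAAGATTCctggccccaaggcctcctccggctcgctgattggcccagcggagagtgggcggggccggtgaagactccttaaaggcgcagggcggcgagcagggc

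Shorter stretches of 30 bases show the site shared by Hspd1 and Hspe1, which lies inside the Hspd1 gene as annotated, at chr1:55088053-55088082 on the plus strand, and the paired sites of Hspb1, at chr5:135887801-135887830 on the plus strand, with the units in capitals. A match describes the letters only.
Hspd1 and Hspe1: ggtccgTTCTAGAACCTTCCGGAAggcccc
Hspb1: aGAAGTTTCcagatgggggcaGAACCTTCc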

How the data were processed

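The counts used are those the authors deposited, 1 matrix of UMIs per lane for barcodes called as cells. The members and lists were chosen with earlier results of these data known. Lanes were summed per barcode. Since a molecule may be counted in both (squared lane differences were 0.559 of the summed counts), exact 95% intervals use the mean of the lanes: Poisson for CPM, conditional binomial for ratios and Clopper-Pearson for shares.

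Cells were clustered with Seurat 5.3.0 and sctransform 0.4.2 in R 4.3.3 (3000 variable genes without the chaperone lists, genes in at least 3 cells, 30 components, resolution 0.8). Cells outside the erythroid clusters were clustered again, a step chosen after the data had been seen, because endothelial cells were mixed with others. Each cluster was scored against 17 marker lists. A listed marker was found where 10% of the cells held it and where it reached 25% of the top CPM over clusters. The best list, with 3 or more found, named the cluster, unless its 10 leading genes spoke for another type or none of them was a marker of that list and the cluster's median depth times 3 fell below the median of all cells. This scoring was chosen after the data had been seen. Unnamed clusters (914 cells nearest to the erythroid and 242 to the LEPR+ stromal list) and 42 plasma cell-like cells are in no main comparison. Sums used Python 3.11.15, scipy 1.17.1 and scanpy 1.11.5 with Scrublet (224 cells called). The calculation of ratios was tried on simulated counts, which is no test of the ratios given here.

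A gene counts as higher or lower at 2-fold, among genes with at least 50 UMIs. Named genes are the members, in each list the gene with the highest CPM and up to 3 each way with the largest ratio per contrast, class markers, and the 5 genes most like Hspa1b and Hspd1 in log2(CPM + 1) among genes with at least 200 UMIs. The alternatives were each lane, mitochondrial and gene limits (10%, 500 genes), doublets removed, chaperones among the variable genes, resolutions 0.4 and 1.2, log-normalized counts, unnamed clusters nearest to the erythroid list added, depth boundaries of 5000 and 20000 UMIs, the mean of each cell's CPM, lane 1 thinned to 2000 UMIs, CPM without globin and mitochondrial UMIs, and minimums of 20 and 200 UMIs. Added after seeing the data were bands of nuclear and rRNA-like share, CPM without those UMIs, at most 5% mitochondrial UMIs, and unnamed clusters nearest to the LEPR+ stromal list added. Coordinates are from GENCODE M21, promoters from RefSeq GRCm38.p6.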

Additional observations from a re-analysis of the deposited data

Results flagged for a closer look

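Barcodes left out of the main comparisons also held chaperone RNA. In the 1144 barcodes with over 20% mitochondrial UMIs (median 3046 UMIs), Hspa1a and Hspa1b summed to 339.8 CPM (316 to 364), above the 167 CPM of all kept cells. Erythroid-like cells of 2500 to 5000 UMIs, nearer to them in depth, had more, at 529 CPM (489 to 572). The 10 genes summed to 4250.2 CPM there (4167 to 4335), below the 7648 CPM of all kept cells. In the 914 cells of unnamed clusters nearest to the erythroid list (median 2173 UMIs), the 10 genes summed to 6797 CPM (6713 to 6883) and the inducible pair to 123 CPM (112 to 135). Of these cells 17.0% were called doublets. They include a cluster of 79 cells with a median of 13093 UMIs, where 68.4% were called doublets and the pair stood at 268 CPM (232 to 308). These barcodes are in none of the main comparisons. The unnamed clusters nearest to the erythroid list, other than the one of 79 cells, were added in an alternative. Nearest does not mean erythroid here. The 10 leading genes of the 79 cells include the osteoblast markers Spp1, Col1a1 and Ibsp. Those of a cluster of 231 cells that was added include the LEPR+ stromal marker Hp, and 28.1% of its cells were called doublets. Neither set of leading genes holds an erythroid marker. The causes of these levels were not tested.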

How the results depend on the processing

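Values are log2 ratios, and the causes of the shifts were not tested. The direction was kept for all 72 ratios (10 genes, the inducible pair and the 10 genes summed, in 6 contrasts) in each lane alone, at a mitochondrial limit of 10%, at 500 genes, at resolutions 0.4 and 1.2, with unnamed clusters nearest to the erythroid list added and without globin and mitochondrial UMIs. It was kept for 71 with doublets removed, log-normalized counts or chaperones among the variable genes, for 64 with the mean of each cell's CPM and for 52 of 59 after thinning to 2000 UMIs. Taking nuclear and rRNA-like UMIs out of the total, an alternative added after seeing the data, moves every gene of a contrast by the same amount, at most by 0.24. For Hspa1a and Hspa1b summed, shallow against deep erythroid-like cells (2.21), the value was 2.38 at 10% mitochondrial UMIs, 2.13 with log-normalized counts, 2.04 with unnamed clusters added, 1.68 and 2.03 at boundaries of 5000 and 20000 UMIs, and 1.77 with the mean of each cell's CPM. Among alternatives added after seeing the data it was 2.42 without nuclear and rRNA-like UMIs, 2.49 under 5% mitochondrial UMIs, 0.65 and 0.90 at nuclear and rRNA-like shares of 5 to 10% and 10 to 20%, and turned around to -1.12 under 5%, or -0.16 there without the cluster of 512 cells. Under 5%, Hspa1a turned to -0.78, Hspa1b to -1.59, Hspd1 to 0.26 and Hspe1 to 0.45. Without that cluster they were 0.23, -0.72, -0.13 and -0.57, so among them only Hspa1b stayed turned. These values rest on 77 shallow cells, and the difference of the pair there was not detectable, so that sign is not read as a result. For the 10 genes in the same contrast (-0.31) it was -0.26 with log-normalized counts, -0.60 and -0.22 at boundaries of 5000 and 20000 UMIs, -0.11 without nuclear and rRNA-like UMIs, and 0.0248, 0.0320 and 0.0255 at shares under 5%, of 5 to 10% and of 10 to 20%, or -0.37 under 5% without that cluster. For the 10 genes at high against low globin (-1.23) it was -1.25 with unnamed clusters added, -1.13 with the mean of each cell's CPM and -1.11 without globin and mitochondrial UMIs. Against erythroid-like cells, LEPR+ stromal-like cells (-1.75) gave -1.61 with the mean of each cell's CPM, -1.65 thinned, -1.79 without globin and mitochondrial UMIs and -1.52 without nuclear and rRNA-like UMIs. Fibroblast-like cells (-0.48) gave -0.32 at resolution 1.2 and -0.38 without nuclear and rRNA-like UMIs, and endothelial-like cells (-0.88) gave -0.59 thinned and -0.65 without those UMIs. Megakaryocyte-like cells (-0.30) gave -0.27 with chaperones among the variable genes, -0.53 with the mean of each cell's CPM, -0.38 thinned and -0.35 without globin and mitochondrial UMIs. Directions near 0 turned for Hsph1 in endothelial-like cells (0.36, with -0.48 as the mean of each cell's CPM), Dnajb1 in fibroblast-like cells (0.10, with -0.17) and Hsp90ab1 in megakaryocyte-like cells (-0.01, with 0.01 with chaperones among the variable genes). Hspb1 gave no ratio where a group had 0 of its UMIs. Depth limits the 51 endothelial-like cells most.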

Other observations

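The 42 plasma cell-like cells, which are in none of the class comparisons, held 2349 CPM of the 10 genes (2234 to 2468) and 128 CPM of Hspa1a and Hspa1b (103 to 159), with the immediate-early genes at 7620 CPM. The 242 cells of the unnamed cluster nearest to the LEPR+ stromal list held 1945 CPM of the 10 genes and 95.6 CPM of the inducible pair (64.3 to 137). Among deep erythroid-like clusters, the pair was at 229.5 CPM in 867 cells (median 48706 UMIs) and 217 CPM in 575 cells (median 41723 UMIs), and at 46.4 CPM in 776 cells (median 56678 UMIs). Clusters of similar depth thus differed in its level.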
